A study of Mus musculus with 6 samples.

Results

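The transcripts described here are those of the mouse mitochondrial genome. They were chosen as the rows of the deposited count table whose gene name starts with mt-. This gave 35 of 49315 genes, namely 13 protein genes and 22 tRNA genes, out of 37 genes annotated on the mitochondrial chromosome. The 2 rRNA genes, mt-Rnr1 and mt-Rnr2, are not analysed here, so every share of mitochondrial counts below is a share of the counts of these 35 genes.

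RNA came from hepatocytes of 3 male C57BL/6J mice, injected hydrodynamically when 8 weeks old with 20 µg of a plasmid in which the TTR promoter, active in hepatocytes, transcribes miR-206 and GFP. The injection also carried 0.8 µg of a Sleeping Beauty transposase plasmid. After 4 weeks, perfused hepatocytes were sorted into GFP-positive cells (miR-206, 3 libraries) and GFP-negative cells (control, 3 libraries). The labels give the miR-206 cells the genotype miR-206 overexpression and the control cells a wild-type genotype with empty vector, whereas the series text takes both fractions from injected mice. Nothing says which libraries share a mouse. The p-values therefore measure the spread between these libraries only.

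The mitochondrial genome is transcribed from both strands into long precursors, which carry protein, rRNA and tRNA sequences end to end. Most protein and rRNA sequences are separated by tRNAs, and the cutting out of each tRNA frees its neighbours (the tRNA punctuation model). The proteins are core subunits of respiratory complexes I, III, IV and V, and the tRNAs serve the organelle's own ribosomes, which make these proteins. Most mature mitochondrial mRNAs carry short poly(A) tails, while mature tRNAs are short, folded and modified, and are poorly captured by mRNA library kits. Hepatocytes are rich in mitochondria, and mitochondrial transcripts usually take a large share of liver RNA.

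Library totals ran from 4157947 to 5724329 counts in miR-206 cells and from 8966590 to 15244017 counts in control cells. Summed levels of 15 hepatocyte markers ran from 21250 to 96800 CPM (counts scaled to 1000000 per library) in miR-206 cells and from 60380 to 107900 CPM in control cells, so markers of the labelled cell type were abundant in all libraries. By the edgeR test described below, which called 29.6% of all tested genes lower and 25.8% higher, 11 of the 15 were lower in miR-206 cells, as were 12 of 12 Kupffer cell markers (92.5 to 135 CPM summed in miR-206 cells and 527 to 1244 CPM in control cells) and 10 of 10 endothelial markers (131 to 239 CPM in miR-206 cells and 358 to 422 CPM in control cells). Of stellate cell markers 4 of 9 were lower, of biliary markers 4 of 6 and of red cell markers 1 of 5, and of 8 lymphocyte markers 3 were lower and 2 higher. In bulk libraries fewer cells of a type and less RNA per cell cannot be told apart, and the part of these markers in the results was not tested. Genes of olfactory and vomeronasal receptors, which hepatocytes are not known to use, served as a measure of background. They gave 5.45, 3.69 and 5.38 counts per exonic kb in miR-206 cells and 3.05, 1.43 and 1.26 in control cells, although the miR-206 libraries were shallower.

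The tRNA sequences on which the results turn are printed first, 5′ to 3′ as transcribed, from the GENCODE M21 transcripts (GRCm38), with the anticodon in capitals. The first 4 are the tRNA genes with the steadiest difference between groups, and the last 2 had almost no counts. All 6 are annotated on the plus strand of the mitochondrial chromosome.
mt-Tv (valine, chrM:1025-1093): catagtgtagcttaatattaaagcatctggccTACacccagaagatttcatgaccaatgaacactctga
mt-Th (histidine, chrM:11546-11612): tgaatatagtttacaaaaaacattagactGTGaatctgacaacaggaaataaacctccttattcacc
mt-Tl2 (leucine, chrM:11671-11741): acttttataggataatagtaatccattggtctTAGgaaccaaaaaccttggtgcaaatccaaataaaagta
mt-Tf (phenylalanine, chrM:1-68): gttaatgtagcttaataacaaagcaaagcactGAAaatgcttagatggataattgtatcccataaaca
mt-Td (aspartate, chrM:6942-7011): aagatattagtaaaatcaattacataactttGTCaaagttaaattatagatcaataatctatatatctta
mt-Tk (lysine, chrM:7700-7764): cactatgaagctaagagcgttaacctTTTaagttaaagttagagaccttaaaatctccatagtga

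With each anticodon set in the middle of a loop of 7 bases, the bases on either side form a stem of 5 pairs, where G with T also counts as a pair. The loop length was a setting of the search. Where the triplet occurred more than once, the place with the most pairs was taken, so the stem is no separate evidence for the place. Genes mt-Tf and mt-Tv flank mt-Rnr1 on either side. The trio of mt-Th, mt-Ts2 and mt-Tl2 lies between the protein genes mt-Nd4 and mt-Nd5. At 59 bases mt-Ts2 is the shortest of the 22, a serine tRNA that in mammals lacks the D arm.

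The 35 genes together took 11.2%, 63.8% and 48.7% of all counts in miR-206 cells and 35.96%, 9.16% and 10.4% in control cells (the widest 95% Wilson interval, in miR-206 replicate 2, ran from 63.8% to 63.9%; intervals cover counting error only). The means were 41.2% ± 27.1 in miR-206 cells and 18.5% ± 15.1 in control cells (SD, n = 3 each). The groups overlapped, since the lowest miR-206 library lay near the lower controls and the highest control lay above that miR-206 library. The exact two-sided permutation test gave p = 0.2 (n = 3 each, smallest possible p 0.1), so the difference of 22.8 percentage points was not larger than the spread between libraries. It was 11.5 points without miR-206 replicate 2 and 37.8 points without miR-206 replicate 1.

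Within the mitochondrial counts the classes were far from equal. Protein genes took 98.5%, 99.6% and 99.6% in miR-206 cells and 99.7%, 99.7% and 99.7% in control cells. The tRNA genes took the rest, with 1.48% (95% Wilson interval 1.44 to 1.51), 0.359% (0.352 to 0.365) and 0.437% (0.429 to 0.444) in miR-206 cells and 0.308% (0.302 to 0.314), 0.294% (0.285 to 0.303) and 0.286% (0.277 to 0.294) in control cells. Every miR-206 library lay above every control, and miR-206 replicate 1 stood far above the other two. The exact two-sided permutation test gave p = 0.1 (n = 3 each), the smallest this design allows, for a difference of 0.462 percentage points. Without miR-206 replicate 1 the difference was 0.102 points. That library also had the lowest mitochondrial share of the miR-206 group and the highest count of receptor genes per kb, at 5.45. After subtraction of the receptor background from all libraries, the difference between groups was again 0.462 points. The part of the low mitochondrial share in the tRNA share of that library was not tested.

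**Figure D1:**
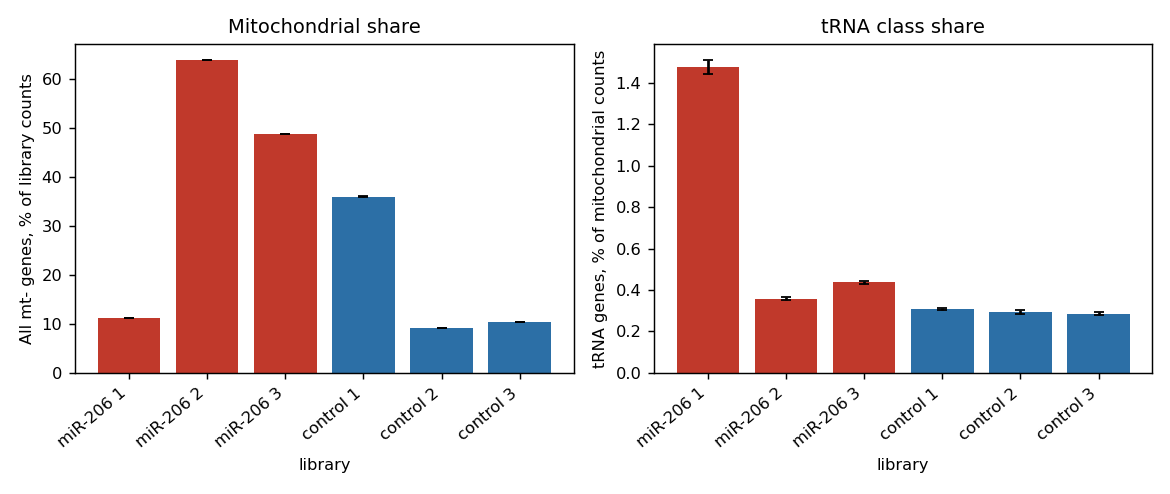
Bars give the share of all library counts taken by the 35 mitochondrial genes (left, %) and the share of these mitochondrial counts taken by the 22 tRNA genes (right, %), per library, with 95% Wilson intervals. The mitochondrial share overlapped between miR-206 (red) and control (blue), whereas the tRNA share was higher in every miR-206 library, most of all in miR-206 replicate 1 at 1.48%.

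Among protein genes, 6 carried nearly all counts. These are mt-Co1 (catalytic subunit of complex IV), mt-Cytb (cytochrome b, the mitochondrial subunit of complex III) and mt-Nd1, mt-Nd2, mt-Nd4 and mt-Nd5 (membrane subunits of complex I). Together they took 94.7%, 97.0% and 97.1% of mitochondrial counts in miR-206 cells and 96.7%, 96.7% and 96.4% in control cells. Per length and averaged over all 6 libraries, mt-Cytb had 21.9% of mitochondrial counts per kb, mt-Nd1 19.6, mt-Co1 19.2, mt-Nd2 9.15, mt-Nd4 5.25, mt-Nd5 3.37 and mt-Nd6 2.79. The remaining genes lay far lower on the same scale, with mt-Co3 at 0.908% per kb, mt-Atp6 at 0.691, mt-Co2 at 0.373, mt-Atp8 at 0.312, mt-Nd3 at 0.209 and mt-Nd4l at 0.0234.

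All 6 genes of this low group lie side by side, between mt-Co1 and mt-Nd4. Together with the tRNA genes among them, 10 genes in all from mt-Td to mt-Nd4l, they took 1.82%, 1.48% and 1.21% of mitochondrial counts in miR-206 cells and 1.84%, 1.31% and 1.83% in control cells. A nuclear copy of this stretch is annotated on chromosome 1 as 7 unprocessed pseudogenes on the minus strand (chr1:24611535-24616197, GRCm38). Over their aligned bases Gm28661, Gm10925, Gm28437, Gm28438, Gm10222 and Gm28439 matched mt-Co2, mt-Atp6, mt-Co3, mt-Nd3, mt-Nd4l and mt-Nd4 without a difference, and Gm29216 matched the last 483 bases of mt-Co1 at 99.8%. The copies keep the order and spacing of the mitochondrial genes to within 1 base, so the places of mt-Td, mt-Tk, mt-Tg, mt-Tr and mt-Atp8 also fall in this block, between the annotated copies; the chromosome 1 sequence there was not analysed here.

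The first 61 aligned bases of the mt-Co1 pair show how alike the copies are. They hold the only difference found in the 7 alignments, A1066T (mitochondrial base first, then its position from 1 at the first base of mt-Co1, then the base of Gm29216), which is in capitals. The alignments were local, so differences in unaligned ends were not counted. That of Gm29216 starts at its base 10 and that of Gm28438 at its base 4.
mt-Co1: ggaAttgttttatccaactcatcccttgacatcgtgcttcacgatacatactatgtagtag
Gm29216: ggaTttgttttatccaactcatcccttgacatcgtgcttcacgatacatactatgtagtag

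Of all 50-base windows of each gene, the share found again in annotated transcripts of other genes reached every window for mt-Co2, and was 99.5% for mt-Atp6, 99.9% for mt-Co3, 97.99% for mt-Nd3 and 98.8% for mt-Nd4l. It was 62.2% for mt-Nd4, 51.1% for mt-Co1, 8.19% for mt-Nd2 and 7.61% for mt-Nd5, and no window was found again for mt-Nd1, mt-Nd6, mt-Cytb, mt-Atp8 or any tRNA gene. Genes above 95% on this measure all belonged to the low group, and mt-Co1 and mt-Nd4 had high counts. The low gene mt-Atp8 had no shared window of 50 bases, but 8 of its 169 windows of 36 bases (4.73%) were found in Gm10925. The search covered annotated transcripts only, and the place of mt-Atp8 on chromosome 1 lies mostly outside them, so it could not find a copy there. The handling of reads that match more than 1 place is not stated in the sources used here, and the part of shared sequence in the low counts was not tested.

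The copies themselves held counts. Gm28437, the copy of mt-Co3, had 7570, 40447 and 31443 counts in miR-206 cells and 50497, 20128 and 22835 in control cells. In each library that was 1.98, 2.05 and 2.20 times the count of mt-Co3 in miR-206 cells and 1.79, 2.37 and 1.88 times in control cells. Summed with its copy, mt-Co3 took 2.34%, 1.86% and 1.60% of the joint counts of mitochondrial genes and copies in miR-206 cells and 2.37%, 1.98% and 2.32% in control cells, still far below mt-Co1 summed with its own copy (28.8%, 30.8% and 30.6%, against 26.1%, 29.6% and 30.4%). Counts of mt-Co2, mt-Atp6, mt-Co3, mt-Nd3 and mt-Nd4l are therefore uncertain as levels.

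**Figure D2:**
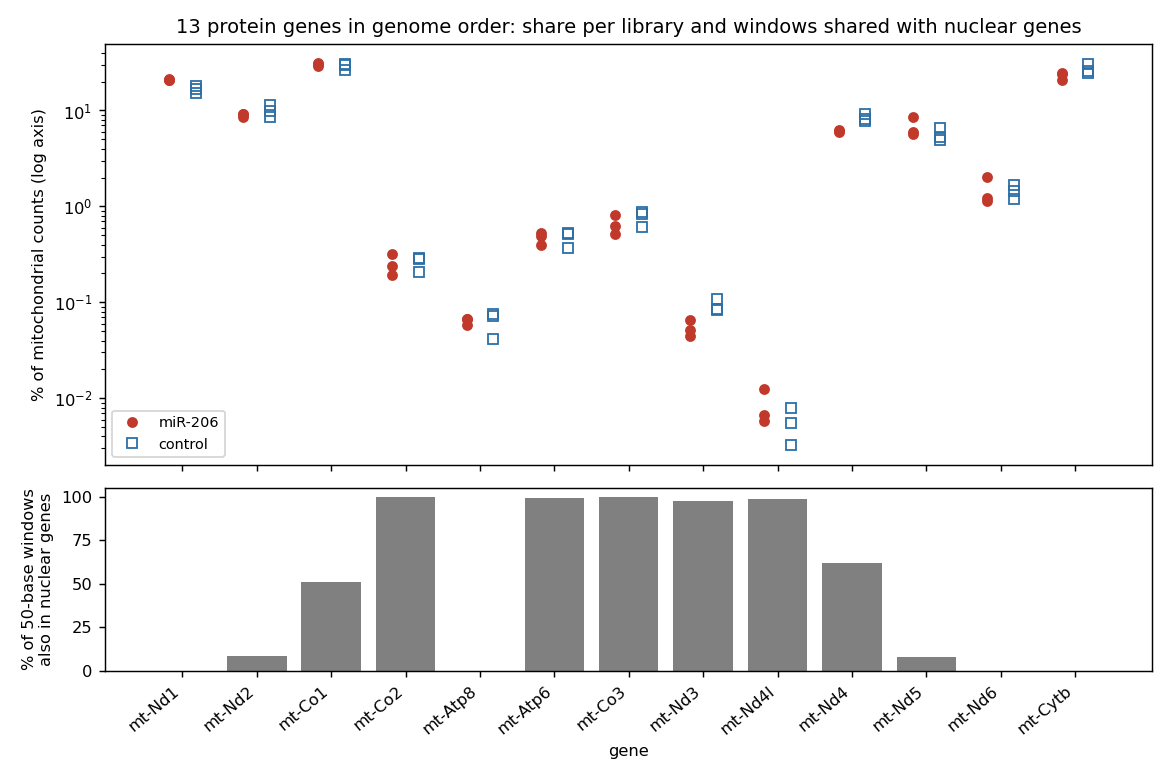
Upper panel, share of mitochondrial counts (%, log axis) of each of the 13 protein genes in the 3 miR-206 (filled red) and 3 control libraries (open blue), in genome order. Lower panel, percentage of each gene's 50-base windows also present in annotated transcripts of other genes. Genes with over 95% shared windows sit under 1% of mitochondrial counts, and mt-Nd1 is higher and mt-Nd4 lower in every miR-206 library.

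As levels, no protein gene passed the test between groups. Genes were tested with edgeR's quasi-likelihood F test over all 24382 genes with enough counts, normalised by TMM (trimmed mean of M values) factors, at a Benjamini-Hochberg adjusted p under 0.05. Over all tested genes, 25.8% were higher and 29.6% lower in miR-206 cells, around a median log2 fold change of 0.45. That split depended on the scale: 6289 of 13502 genes past the test were higher, against 11570 of 15393 by library size alone (median 1.45) and 13562 of 14455 with libraries scaled on hepatocyte markers (median 2.30). Of the 13 protein genes 0 passed, with adjusted p from 0.425 to 0.990, and 0 passed by DESeq2 or at an unadjusted p under 0.05. Their median log2 fold change was 0.32, from -0.39 for mt-Nd3 to 0.80 for mt-Nd1. The SE was wide, at 0.86 for mt-Nd4 and 0.92 for mt-Cytb.

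The make-up of the protein counts was compared as shares of the mitochondrial counts. Protein genes are nearly all of that total, so these shares leave out the swing of the mitochondrial level between libraries by calculation. The share of mt-Nd1, a core membrane subunit of complex I (ENSMUSG00000064341, chrM:2751-3707), was 21.3%, 20.8% and 20.7% of mitochondrial counts in miR-206 cells and 15.3%, 18.01% and 16.6% in control cells. Every miR-206 library lay above every control, with means of 20.9% ± 0.294 and 16.7% ± 1.34 (SD, n = 3 each; exact two-sided permutation p = 0.1). The share of mt-Nd4, a proton-pumping subunit of the same complex (ENSMUSG00000064363, chrM:10167-11544), was 6.26%, 5.98% and 6.05% in miR-206 cells and 9.23%, 7.80% and 8.09% in control cells. Here every miR-206 library lay below every control, with means of 6.09% ± 0.146 and 8.37% ± 0.752 (SD, n = 3 each; exact two-sided permutation p = 0.1).

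Cytochrome b, mt-Cytb (ENSMUSG00000064370, chrM:14145-15288), took 20.9%, 24.2% and 24.3% in miR-206 cells and 30.6%, 24.5% and 25.7% in control cells. All miR-206 values lay lower, but the highest miR-206 and the lowest control library nearly met. The share of mt-Nd3, a small complex I subunit and a gene with a nuclear copy, was 0.0650%, 0.0518% and 0.0445% in miR-206 cells and 0.0826%, 0.0845% and 0.107% in control cells, again without overlap. With its copy Gm28438 added the order was lost, at 0.421%, 0.233% and 0.248% in miR-206 cells and 0.124% to 0.342% in the lower 2 control libraries, with control replicate 2 above every miR-206 library.

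In all, 1 of 13 protein genes had a share above every control and 3 a share below, against 12.9% and 5.32% of all tested genes when counts were divided by the same mitochondrial totals. The other 9 overlapped. Among them, mt-Co1 took 29.1%, 31.2% and 30.9% in miR-206 cells and 26.4%, 30.1% and 30.8% in control cells, and mt-Nd2 averaged 9.02% ± 0.341 and 9.98% ± 1.36 (SD, n = 3 each). The share of mt-Nd5, a further proton-pumping subunit, was 8.55%, 5.67% and 5.98% in miR-206 cells and 6.50%, 4.93% and 5.25% in control cells. Shares add up to a fixed total, so that a higher share of mt-Nd1 and lower shares of other genes are not independent. Most of all tested genes are not part of that total, so their rates are not a like baseline.

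With mt-Nd6 the one protein gene on the minus strand, its counts were set against those of the 12 plus strand genes. Counts do not measure transcription alone, so their ratio does not give the balance of both transcription units. The log2 ratio was -5.58, -6.44 and -6.33 in miR-206 cells and -6.37, -5.86 and -6.10 in control cells. The groups overlapped, and the exact two-sided permutation test gave p = 1.0 (n = 3 each). No source used here states the strand setting of the counting, and antisense reads over this gene cannot be told apart from its own, nor can reads over the bases that neighbours such as mt-Nd4l and mt-Nd4 share be assigned to 1 gene.

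Of the 22 tRNA genes, 19 could be tested, and all 19 had a positive log2 fold change, with a median of 0.95 beside 0.45 over all genes, and 8 passed the edgeR test as higher in miR-206 cells, against 25.8% of all tested genes. None passed as lower. The 8 carry phenylalanine (mt-Tf), valine (mt-Tv), glutamine (mt-Tq), histidine (mt-Th), serine (mt-Ts2), leucine (mt-Tl2), threonine (mt-Tt) and proline (mt-Tp). The remaining 11 tested genes did not pass, with mt-Tl1, the leucine tRNA that follows mt-Rnr2, at 0.95 (SE 0.54, edgeR adjusted p = 0.149) and mt-Te at the lowest fold change, 0.16.

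Among the 8, mt-Tv had 632, 503 and 737 counts in miR-206 cells and 121, 58 and 41 in control cells. Every miR-206 library stood well above every control, although the controls were the deeper libraries. As CPM it averaged 128 ± 25.1 and 6.74 ± 5.87 (SD, n = 3 each), and edgeR gave a difference of 3.33 on the log2 scale (SE 0.51, adjusted p = 0.000652). On the far side of mt-Rnr1, mt-Tf had 364, 325 and 417 counts in miR-206 cells and 146, 63 and 75 in control cells, or 75.4 ± 11.1 and 8.58 ± 6.70 CPM (2.22, SE 0.44, edgeR adjusted p = 0.00232).

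In the trio between mt-Nd4 and mt-Nd5, mt-Th had 278, 182 and 217 counts in miR-206 cells and 54, 24 and 25 in control cells, for which edgeR gave a log2 difference of 2.97 (SE 0.43, adjusted p = 0.000517). Its neighbour mt-Tl2 had 257, 224 and 359 counts in miR-206 cells and 85, 39 and 54 in control cells (2.496, SE 0.41, edgeR adjusted p = 0.000931). Between them, mt-Ts2 had 31, 41 and 33 counts in miR-206 cells and 23, 12 and 16 in control cells (1.36, SE 0.51, edgeR adjusted p = 0.0436). In all 3 genes the count of miR-206 cells was higher in every library, but mt-Ts2 rests on few counts and lies just under the threshold.

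At the end of the genome map, mt-Tp had 172, 817 and 697 counts in miR-206 cells and 235, 144 and 91 in control cells, which as CPM were 41.4, 165 and 122 against 26.2, 9.45 and 6.47 (2.22, SE 0.67, edgeR adjusted p = 0.0177). Its raw count in miR-206 replicate 1 was below that of control replicate 1, and the groups separate as CPM. CPM leave out the TMM factors of the edgeR test, 1.919 for miR-206 replicate 1 and 0.852 for control replicate 1. With these factors applied, mt-Tp in miR-206 replicate 1 again lies below control replicate 1. Beside mt-Tp, mt-Tt had 17, 27 and 29 counts in miR-206 cells and 16, 4 and 6 in control cells (1.76, SE 0.69, edgeR adjusted p = 0.0497). The glutamine tRNA mt-Tq had 1380, 1309 and 1616 counts in miR-206 cells and 869, 483 and 451 in control cells (1.53, SE 0.47, edgeR adjusted p = 0.0202).

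Of the 8, 6 are plus strand genes, out of 11 tested there, and 2 (mt-Tq and mt-Tp) are minus strand genes, out of 8 tested there. The 4 genes mt-Tv, mt-Th, mt-Tl2 and mt-Tf, printed above, passed in all 8 alternative settings and with each of the 6 libraries left out. With 1 library left out, mt-Tq, mt-Ts2 and mt-Tt passed in 1 of 6 fits, without control replicate 1, and mt-Tp in 2, without miR-206 replicate 1 or control replicate 1. The number of tRNA genes that passed was 5, 4 and 4 without miR-206 replicates 1, 2 and 3, and 15, 4 and 4 without control replicates 1, 2 and 3.

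**Figure D3:**
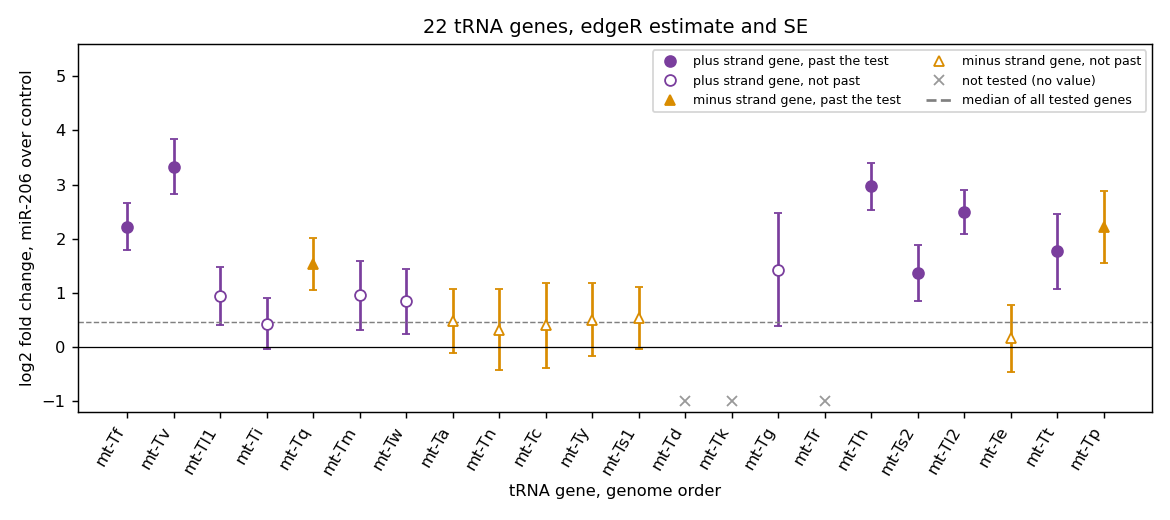
Points give the log2 fold change of miR-206 over control cells with its SE for the 22 tRNA genes in genome order (circles, plus strand; triangles, minus strand; filled, past the edgeR test; crosses, not tested and without a value). All 19 tested genes lie above 0, and mt-Tv is the highest at 3.33.

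The summed level of the 8 genes was 753, 694 and 717 CPM in miR-206 cells and 173, 54.2 and 53.9 CPM in control cells. These genes were chosen by the test between the same groups, so neither the difference in sums nor their near-equality within miR-206 cells supports anything. These CPM also leave out the TMM factors of the test. The factors were 1.919, 1.124 and 1.347 in miR-206 cells and 0.852, 0.638 and 0.633 in control cells. As a share of mitochondrial counts they took 0.670%, 0.109% and 0.147% in miR-206 cells and 0.0480%, 0.0592% and 0.0520% in control cells, nearly constant in the controls, where their CPM was highest in the library with the highest mitochondrial share. Among the 8, mt-Tp and mt-Tt (4.09, 5.47 and 5.07 CPM) had the same order as the mitochondrial share in miR-206 cells. In control cells mt-Tt kept that order, whereas mt-Tp was higher in replicate 2 than in replicate 3. The 11 other tested tRNA genes summed to 906, 1594 and 1406 CPM in miR-206 cells and 932, 214 and 242 CPM in control cells. These were lowest in miR-206 replicate 1 and highest in control replicate 1 within their groups, the same order as the mitochondrial share.

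Set against the receptor genes, the 8 had 1067, 1722 and 1415 times the receptor count per kb in miR-206 cells and 944, 1071 and 1119 times in control cells. On this scale the groups overlapped, and the difference was much smaller than in CPM. For mt-Tv alone the multiple was 1682, 1973 and 1984 in miR-206 cells and 576, 587 and 472 in control cells, and for mt-Th it was 762, 735 and 602 against 265, 250 and 297. It was 665, 854 and 939 against 393, 383 and 605 for mt-Tl2, and 983, 1294 and 1139 against 705, 646 and 877 for mt-Tf. These 4 genes were thus higher in every miR-206 library also relative to the receptor genes. The other 4 overlapped between groups on this scale, with mt-Tq at 3569, 4991 and 4227 in miR-206 cells and 4018, 4747 and 5049 in control cells, and mt-Tp at 471, 3301 and 1932 in miR-206 cells and 1151, 1500 and 1080 in control cells. The multiple of mt-Ts2 was 96.5, 188 and 104 in miR-206 cells and 128, 142 and 216 in control cells, and that of mt-Tt was 46.6, 109 and 80.4 in miR-206 cells and 78.4, 41.7 and 71.2 in control cells. The 11 others had 911, 2807 and 1970 times the receptor count per kb in miR-206 cells and 3614, 3004 and 3567 times in control cells, below every control. Receptor counts moved with the groups in the same direction as the tRNA genes. When the receptor background, in proportion to exonic length, was subtracted from all counts, 9 tRNA genes passed the edgeR test as higher. These included all of the 8, with mt-Tt nearest the threshold (2.53, edgeR adjusted p = 0.0446). The part of the receptor counts in the tRNA result was not tested otherwise.

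**Figure D4:**
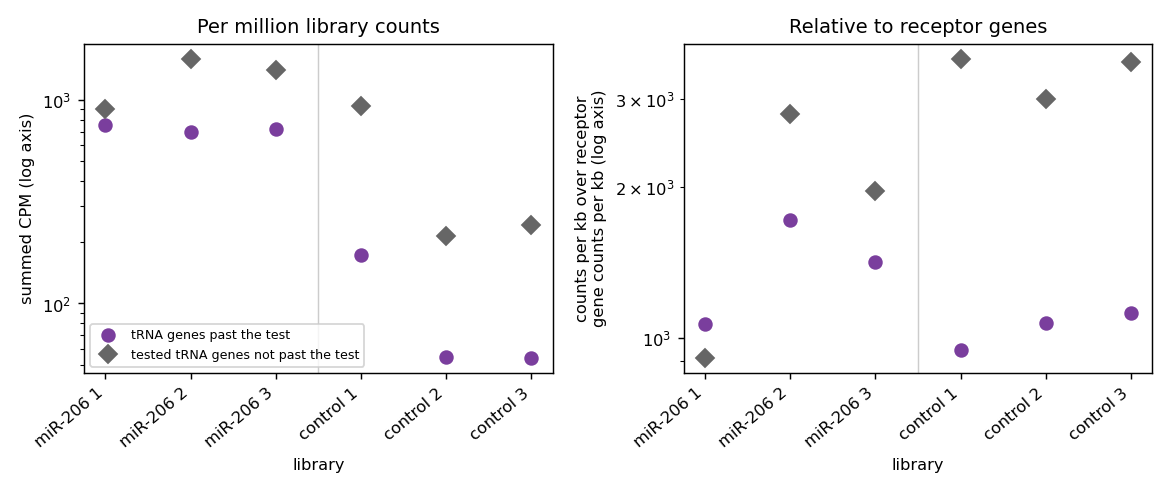
Summed level of the 8 tRNA genes that passed the test (circles) and the 11 tested ones that did not (diamonds) per library, as CPM (left, log axis) and as counts per kb divided by those of the receptor genes (right, log axis). The 8 lie at 694 to 753 CPM in miR-206 libraries and at 53.9 to 173 CPM in controls, while relative to receptor genes the groups overlap.

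Relative to the mitochondrial total, 10 of 22 tRNA genes had a share above every control and 0 a share below, against 12.9% and 5.32% of all tested genes. The 10 are the 8 above with mt-Tm (methionine) and mt-Tw (tryptophan). Most tested genes are not part of the mitochondrial total, so their rates are not a like baseline. The share of mt-Tv was 0.135%, 0.0160% and 0.0265% in miR-206 cells and 0.00375%, 0.00416% and 0.00281% in control cells, highest by far in miR-206 replicate 1. So was the share of mt-Th, at 0.0595%, 0.00577% and 0.00779% in miR-206 cells and 0.00167%, 0.00172% and 0.00171% in control cells, where the controls were nearly equal.

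When edgeR was fitted over the whole table with the mitochondrial total as library size, 0 of 24382 genes passed (0.0%). Of all these genes, 3548 had an unadjusted p under 0.05. Among the 19 tested tRNA genes 3 did, mt-Tv, mt-Th and mt-Tl2, a share near that over all genes. The median log2 fold change in this fit was 1.17 for tRNA genes and 0.96 for all genes. The SE there was large, at 1.64 for mt-Tv and 1.78 for mt-Nd1. DESeq2 on the same scale called 2.12% of genes as higher, among them mt-Tv at 4.05 (SE 1.04, DESeq2 adjusted p = 0.0116), mt-Th at 3.83 (SE 1.09, DESeq2 adjusted p = 0.0210) and mt-Tl2 at 3.03 (SE 1.02, DESeq2 adjusted p = 0.0480). No protein gene passed in either.

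Genes mt-Td, mt-Tk and mt-Tr held too few counts to be tested. The aspartate gene mt-Td had 3, 1 and 0 counts in miR-206 cells and 1, 0 and 0 in control cells. The lysine gene mt-Tk had 2, 0 and 1 counts in miR-206 cells and 0 in every control library. The arginine gene mt-Tr had 2, 5 and 4 counts in miR-206 cells and 18, 3 and 5 in control cells. The glycine gene mt-Tg had 13, 6 and 20 counts in miR-206 cells and 14, 2 and 0 in control cells. These 4 genes lie in the stretch from mt-Td to mt-Nd4l, but no window of theirs was found in another annotated transcript, and the chromosome 1 sequence at their places was not analysed here. A count of 0 allows up to 3 counts in that library. No fold is given for mt-Td, mt-Tk and mt-Tr.

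The respiratory complexes join mitochondrial to nuclear subunits, and both parts were set side by side per library. Mitochondrial complex I genes summed to 52620, 273700 and 210200 CPM in miR-206 cells and 147400, 40170 and 43020 CPM in control cells, with overlap. Nuclear complex I genes, 36 in all, summed to 1052, 606 and 762 CPM in miR-206 cells and 2734, 6720 and 6450 CPM in control cells, without overlap. Nuclear complexes III, IV and V showed the same order, and the mitochondrial parts of these complexes overlapped.

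Of 70 tested nuclear subunits, 70 passed the edgeR test as lower in miR-206 cells, against 29.6% of all tested genes, with a median of -3.999 beside 0.32 for the 13 mitochondrial protein genes. With libraries scaled on hepatocyte markers, which moves the median of all genes to 2.30, 57 of the 70 passed as lower. Cox4i1, a nuclear subunit of complex IV, had 68.1, 33.4 and 55.5 CPM in miR-206 cells and 326, 827 and 832 CPM in control cells (-4.81, SE 0.65, edgeR adjusted p = 0.000406). Ndufs8, an iron-sulfur subunit of complex I, had 17.6, 10.3 and 10.7 CPM in miR-206 cells and 66.1, 154 and 151 CPM in control cells (-4.41, SE 0.56, edgeR adjusted p = 0.000332). Atp5o of complex V (log2 fold change -4.58) and Uqcrh of complex III (-4.48) also fell. The log2 ratio of the 13 mitochondrial genes to the nuclear subunits, a comparison chosen after the list values were seen, was 5.42, 8.59 and 7.95 in miR-206 cells and 5.55, 2.22 and 2.43 in control cells. Control replicate 1 lay just above the lowest miR-206 library, and the exact two-sided permutation test gave p = 0.2 (n = 3 each).

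**Figure D5:**
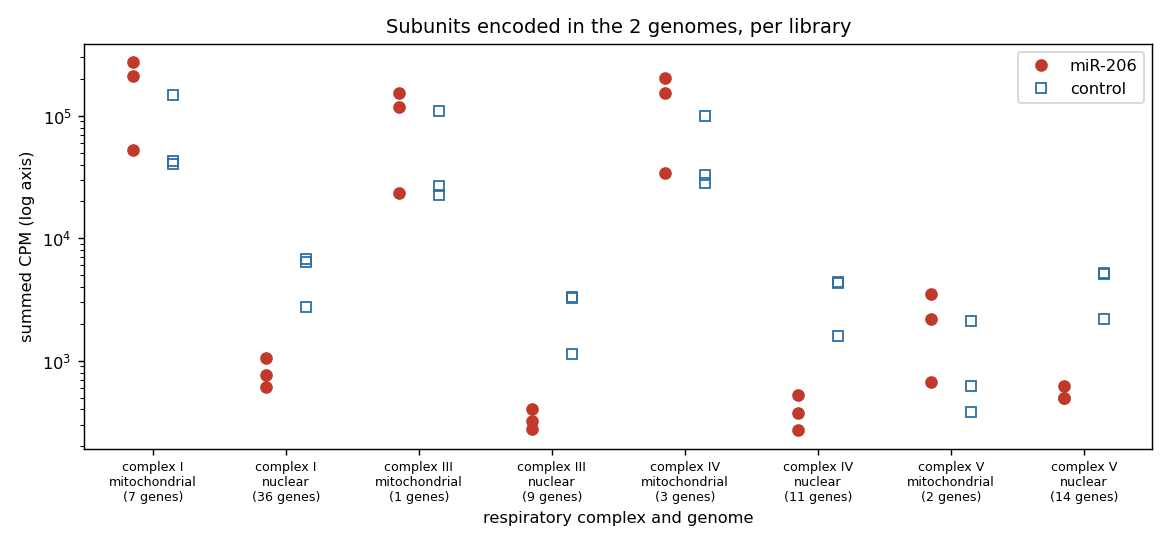
Summed CPM (log axis) of mitochondrial and nuclear subunits of complexes I, III, IV and V in the 3 miR-206 (filled red) and 3 control libraries (open blue). Nuclear subunits are lower in every miR-206 library, at 270.7 to 1052 CPM, whereas the mitochondrial genes of each complex overlap between groups.

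By the edgeR test with TMM factors, nuclear genes that serve mitochondrial transcription, RNA processing, RNA modification and tRNA charging were mostly lower. Of 93 tested, 63 passed as lower, against 29.6% of all tested genes, and 1 as higher, against 25.8%, with a median of -1.48 beside 0.45. Summed CPM, which leave out these factors, overlapped between groups for each list except tRNA charging. For transcription and maintenance they were 285, 169 and 234 in miR-206 cells and 177, 255 and 248 in control cells. In mitochondrial DNA transcription and maintenance 14 of 20 fell, among them the topoisomerase gene Top1mt (-3.10, SE 0.50), Mterf4 (-2.38), a factor of mitochondrial ribosome assembly, and Ssbp1 (-1.71), which binds single-stranded mitochondrial DNA. Primpol, a primase-polymerase, was the gene that rose, at 23.1, 14.4 and 16.6 CPM in miR-206 cells and 5.46, 3.28 and 4.12 CPM in control cells (1.04, SE 0.31, edgeR adjusted p = 0.0167).

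In RNA processing, stability and decay 20 of 26 fell, against the same 29.6% of all tested genes. Hsd17b10, a subunit of the mitochondrial RNase P that cuts tRNA 5′ ends, had 14.4 to 29.8 CPM in miR-206 cells and 82.5 to 160 CPM in control cells (-3.85, SE 0.51, edgeR adjusted p = 0.000374). Fastk (-3.29), whose mitochondrial form is needed for mt-Nd6 mRNA, and Fastkd3 (-2.71) of the same family also fell. In tRNA and rRNA modification 18 of 25 fell, against 29.6%, with Trnt1, which adds the CCA end to tRNAs, at 7.94, 4.66 and 4.72 CPM in miR-206 cells and 14.2, 19.5 and 19.6 CPM in control cells (-2.73, SE 0.36, edgeR adjusted p = 0.000353), and with the pseudouridine synthase gene Rpusd3 (-3.75) and the methyltransferase gene Mrm2 (-3.01).

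In the list of mitochondrial aminoacyl tRNA synthetases and related enzymes 11 of 22 fell, against 29.6% of all tested genes, among them the phenylalanine enzyme gene Fars2 (-2.96, SE 0.41), the valine enzyme gene Vars2 (-2.54) and Gatb (-1.80), a subunit of the enzyme that forms glutaminyl-tRNA. The balance over the 4 lists depended on the scale. With libraries scaled on hepatocyte markers 16 of the 93 were higher and 1 lower, by library size alone 10 and 21, and after subtraction of the receptor background 5 and 41.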

How the data were processed

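Total RNA (RNeasy Micro) was made into 6 libraries (SMARTER mRNA-Seq), per the labels' protocols. The authors deposited 1 table of raw counts per Ensembl gene, whole numbers with no normalization. The builds GRCm38 and mm10 come from the submitters' processing notes. The sources used here do not state the aligner, counter, strand setting or handling of multiply mapped reads. By identifier 48970 of 49315 genes matched GENCODE M21, which gave gene types, exonic lengths, coordinates and sequences. After filterByExpr (minimum count 10) and TMM factors, edgeR 4.0.16 tested each gene (quasi-likelihood, robust, group as the single term). The same test was run on simulated counts in which few genes differed, with changes balanced in direction. That run cannot judge the scaling of these libraries. CPM are counts scaled to 1000000 per library. DESeq2 1.42.0, scipy 1.17.1 (exact permutation tests) and Biopython 1.88 (alignments) served the rest. SEs are the absolute log2 fold change over the root of F. The receptor background summed 1700 genes over 5498.6 exonic kb. Windows of 36, 50 and 100 bases of each mitochondrial transcript were searched on both strands in 141730 other annotated transcripts. Copies were aligned locally.

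The members and lists were chosen with earlier results of these data known. Named were all protein genes, the tRNA genes past the test, and the 3 members of each nuclear list with the smallest p; any other gene was chosen after its values were seen. For a gene at 0, the limit is 3 counts. Ratios involving rRNA genes were planned and are not reported here. Alternatives were other factors, scales and filters, DESeq2, background subtraction, added copies, a replicate block and each library left out.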

Additional observations from a re-analysis of the deposited data

How the results depend on the processing

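The number of genes past the test in the whole table was 13502, and 8473 to 19525 with 1 library left out. No protein gene passed under any of the 8 alternatives or with any library left out. The number of tRNA genes that passed as higher, 8, was 13 by library size alone, 13 with hepatocyte marker scaling and 5 without a filter on low counts, which tests more genes, and 4 to 15 with 1 library left out. After background subtraction it was 9. The median of all tested genes was 0.35 with RLE factors, 1.45 by library size alone, 2.30 with hepatocyte marker scaling and 0.23 after background subtraction, and all 8 tRNA genes kept a positive fold change there. Relative to the mitochondrial total, 0 tRNA genes passed with edgeR, 3 with DESeq2 and 0 to 1 with 1 library left out (mt-Tv at 2.57, adjusted p = 0.0482, without miR-206 replicate 1). For the nuclear lists and the ratio to nuclear subunits the alternatives were chosen after seeing the data. The ratio kept its direction throughout (3.28 to 4.99). Of the genes for mitochondrial RNA, 1 passed as higher and 63 as lower. These counts were 10 and 21 by library size alone, 16 and 1 with hepatocyte marker scaling and 5 and 41 after background subtraction, and 0 passed as higher without a filter. With 1 library left out 0 to 2 passed as higher and 50 to 78 as lower. The cause of these moves was not tested. Same-numbered libraries did not deviate together (correlations 0.00818, 0.0230 and -0.00644). The replicate block gave 12058 genes in the whole table and 6 tRNA genes, with mt-Ts2 at 1.37 and mt-Tt at 1.93 no longer past the test. The ratio of mt-Nd6 to plus strand genes, at -0.0113, was 0.148 without miR-206 replicate 2, 0.0967 without miR-206 replicate 3 and 0.113 without control replicate 2, and -0.278 at its lowest. The tRNA share kept its direction under all alternatives, at 0.102 to 0.661 percentage points with 1 library left out. Counts of mt-Td, mt-Tk, mt-Tr and mt-Tg were 20 or fewer in every library, for a cause that was not tested. The ratios with rRNA genes were not run, since these genes are not analysed here.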

Other observations

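Among the copies on chromosome 1, Gm28438 and Gm10222 did not follow their mitochondrial genes from library to library. Gm28438 had 5.74, 3.63 and 4.71 times the count of mt-Nd3 in miR-206 cells and 0.551, 5.11 and 2.30 times in control cells. Gm10222, the copy of mt-Nd4l, had 1011, 1568 and 1612 counts in miR-206 cells and 799, 379 and 342 in control cells, and passed the edgeR test as higher (1.77, SE 0.54, adjusted p = 0.0199), whereas the other 6 copies did not pass. The ratio of Gm28661 to mt-Co2 stayed between 1.20 and 1.33 in miR-206 cells and between 1.12 and 1.52 in control cells.

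Within the list of mitochondrial tRNA synthetases, Lars2, the leucine enzyme, chosen here for its level, had 4174, 5873 and 4382 CPM in miR-206 cells and 25860, 17410 and 22740 CPM in control cells (-3.13, SE 0.66, edgeR adjusted p = 0.00326). The whole list summed to 4518, 6058 and 4622 CPM in miR-206 cells and 26090, 17690 and 23000 CPM in control cells, so that this gene made up most of it. Whether the reads counted at Lars2 all come from its mRNA was not tested, so its level and difference are uncertain.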
